A study of Trachemys scripta with 24 samples.

Results

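The mir-148 and mir-152 families were followed in the plasma of female pond sliders (Trachemys scripta) around surgical gonadectomy. Their members were all entries of the count table that carry the prefix cpi and a name in mir-148 or mir-152, whatever the letter and arm. The prefix cpi marks entries of the painted turtle, Chrysemys picta, the closest relative of the slider among the species used for mapping. This gave 6 of 528 cpi entries, and of 1994 entries in all, namely both arms of cpi-mir-148a, cpi-mir-148b and cpi-mir-152. The families were selected on a measured value, the mean level of cpi-mir-148a-5p, which was the highest of all cpi entries. That level and its rank are therefore a description and were not tested.

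Small RNA was sequenced from 24 plasma libraries, 8 at each of 3 time points. T0 was 24 h before surgery, T1 was 2.5 h after it and T2 was 36 h after it. All libraries came from EDTA plasma of sexually mature females whose ovaries were removed through the prefemoral fossa with an endoscope. Intramuscular dexmedetomidine, ketamine, midazolam and alfaxalone were given together for anaesthesia, and atipamezole and flumazenil for reversal. T0 plasma came from the same turtles before anaesthesia and surgery, and there was no group without surgery, so surgery, anaesthesia and elapsed time cannot be told apart. The labels name no turtle, so the repeated samples of an animal were not paired, and p-values measure the spread between libraries of a time point.

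A miRNA is cut from a short hairpin, either arm of which can give a mature strand, and usually 1 of them is loaded into the silencing complex and builds up while the other is degraded. Nucleotides near the start of the loaded strand, the seed, pair with target mRNAs. In mammals miR-148a, miR-148b and miR-152 share a seed and form 1 family. miR-148a is abundant in mammalian liver, where it represses the LDL receptor, and the DNA methyltransferase DNMT1 is a well known target of the family. In mammals the genes of miR-148b and miR-152 lie in introns of COPZ1 and COPZ2, which encode subunits of the coatomer coat. The sequences of these entries were not used here.

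cpi-mir-148a-5p alone carried 98.9% of the counts on the 6 members. Its share is given as percent of all counts on cpi entries in a library, each entry counted once. At T0 the share was 8.68% in the lowest library, 16.1% at the median and 19.6% in the highest. At T1 the lowest library had 12.7%, the median was 15.7% and the highest library had 22.7%. At T2 the lowest library had 12.8%, the median was 15.4% and the highest library had 18.8%. So about 1 in 6 counts on turtle entries fell on this single name before and after surgery, and the ranges of the 3 time points overlapped. The mean share was 14.9 ± 3.73% in T0 libraries, 17.0 ± 3.61% in T1 libraries and 15.8 ± 2.19% in T2 libraries (SD, n = 8 each).

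**Figure D1:**
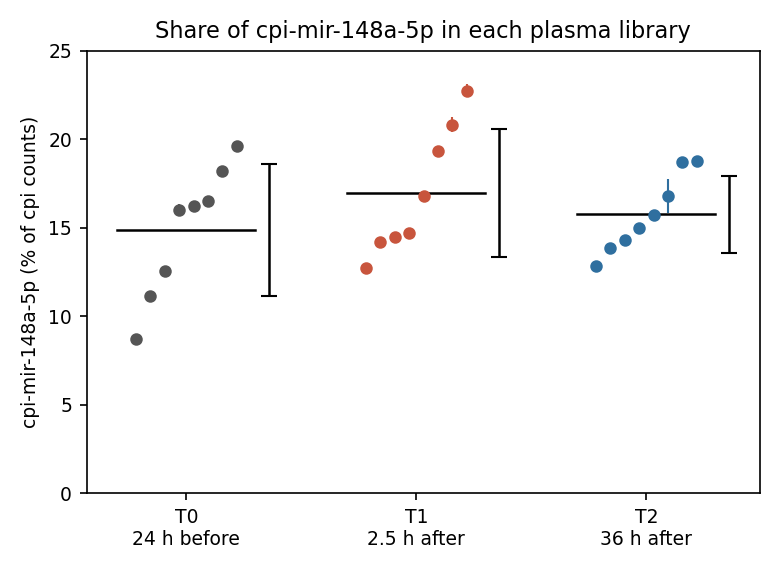
Each point is 1 library, the vertical axis is the percent of cpi counts on cpi-mir-148a-5p and the thin bars are 95% Wilson intervals, mostly smaller than the points. Horizontal lines are means and black bars SD (n = 8). All 24 libraries sat between 8.68% and 22.7%, and the time points overlapped.

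The counting error behind these shares was small beside the differences between libraries. T0 replicate t34, the lowest, had 3991 counts on the entry and a 95% Wilson interval of 8.43 to 8.95%. T1 replicate t44, the highest, had 11568 counts and an interval of 22.4 to 23.1%. The shallowest library, T2 replicate t39, with 979 counts on the entry, had 16.8% (15.8 to 17.8%). Such intervals cover counting error only, since reads are not independent molecules. Totals on cpi entries ranged from 41203 to 312589 at T0, from 34519 to 227789 at T1 and from 5837 to 515184 at T2.

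cpi-mir-148a-5p ranked first among cpi entries in 7 of 24 libraries, of which 2 were T0, 3 T1 and 2 T2 libraries. It was never below rank 3. The cpi entries of other families with the highest mean share were cpi-mir-99a-3p, cpi-mir-425-3p and cpi-mir-122-3p. cpi-mir-99a-3p, of a family that also holds miR-100, averaged 13.4 ± 3.89% in T0 libraries, 13.6 ± 3.83% in T1 libraries and 16.7 ± 3.73% in T2 libraries (SD, n = 8 each). cpi-mir-425-3p averaged 15.96 ± 3.88% in T0 libraries, 10.7 ± 4.50% in T1 libraries and 15.5 ± 4.56% in T2 libraries. cpi-mir-148a-5p, cpi-mir-99a-3p and cpi-mir-425-3p together took between 34.9 and 53.8% of cpi counts in a library, with a median of 44.8%. cpi-mir-148a-5p was above cpi-mir-99a-3p in 12 of 24 libraries and above cpi-mir-425-3p in 15. The ratio to cpi-mir-99a-3p within a library spanned 0.513 (T0 replicate t34) to 3.24 (T0 replicate t37), so the order of the most abundant names changed from library to library, also within T0.

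By a spread pooled over the 3 time points, cpi-mir-148a-5p varied little among the abundant names. The SD of its log2 CPM (the count relative to library size, scaled by edgeR's TMM method) within time points was 0.37, the third lowest of 198 cpi entries kept after filtering for low counts, whose median SD was 1.08. The SD of cpi-mir-99a-3p was 0.49, that of cpi-mir-425-3p 0.51 and that of cpi-mir-122-3p 1.69. cpi-mir-122-3p carries the name of the main hepatocyte miRNA of vertebrates and took from 0.569 to 27.8% of cpi counts. Shares are parts of a common total, so such swings can move the share of other entries. How much of the spread of cpi-mir-148a-5p comes from them was not tested. Entries with few counts have a larger SD from counting alone, so the place among 198 is a description. Among the 20 cpi entries with the highest mean level, cpi-mir-148a-5p also had the third lowest SD. In T0 libraries alone its share was about as variable as those of its neighbours. There the SD was 25.1% of the mean, against 24.3% for cpi-mir-425-3p and 29.0% for cpi-mir-99a-3p.

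In a test that treats libraries as unpaired, no difference in the share of cpi-mir-148a-5p between time points passed the threshold. Differences within a turtle, which this test cannot separate from those between turtles, were not tested. The exact permutation test on the share (two-sided, over all assignments of 8 libraries against 8) gave T1 minus T0 as 2.10 percentage points, with 17.0% at T1 and 14.9% at T0 (p = 0.271). The difference of T2 from T0 was 0.884 points (exact p = 0.572) and that of T2 from T1 was -1.22 points (exact p = 0.424). After Benjamini-Hochberg adjustment over the 6 permutation tests run, each p was 0.746. The sign of the first difference rests on how the libraries are summarized. At T1, 4 of 8 libraries were above the median of T0 and 4 were below, and by medians T1 was lower than T0 by 0.374 points. By medians T2 was also lower than T0, by 0.735 points. Without T0 replicate t34 the means of T2 and T0 differed by 0.000393 points.

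Changes were also estimated on the log2 scale of CPM. edgeR's quasi-likelihood test was run on 690 entries with all 24 libraries in 1 model, and an entry was called where the adjusted p did not exceed 0.1 and the log2 fold change was 1 or more in either direction. cpi-mir-148a-5p had a log2 fold change of 0.32 at T1 versus T0 (adjusted p = 0.660 by edgeR), 0.12 at T2 versus T0 (adjusted p = 0.916 by edgeR) and -0.20 at T2 versus T1 (adjusted p = 0.883 by edgeR), each with a standard error of 0.19. The median over all 690 entries was 0.08 at T1 versus T0, -0.03 at T2 versus T0 and -0.11 at T2 versus T1. The comparisons share libraries and are not independent. In bulk plasma a share does not give the amount of a miRNA per volume, and release by fewer cells and less release per cell cannot be told apart.

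Of the 6 members, 4 passed the filter on low counts, and 0 of these 4 were called in any of the 3 comparisons. The background was 0.58% of entries called at T1 versus T0 (4 of 690, all higher at T1), 0% at T2 versus T0 and 0% at T2 versus T1. A read can count under several species, so the 690 entries are not as many separate miRNAs. Unadjusted, edgeR gave a p up to 0.05 for 62 of 690 entries and 0 of 4 members at T1 versus T0, for 57 entries and 1 member at T2 versus T0, and for 33 entries and 1 member at T2 versus T1. DESeq2 was run on all 1994 entries with its own filter on low counts in place of the one above. It called 0 members in each comparison, beside 16 entries at T1 versus T0, 1 at T2 versus T0 and 0 at T2 versus T1. How many entries received an adjusted p from DESeq2 was not counted, so no share is given. cpi-mir-148b-3p received none at T1 versus T0 and could not be called there.

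**Figure D2:**
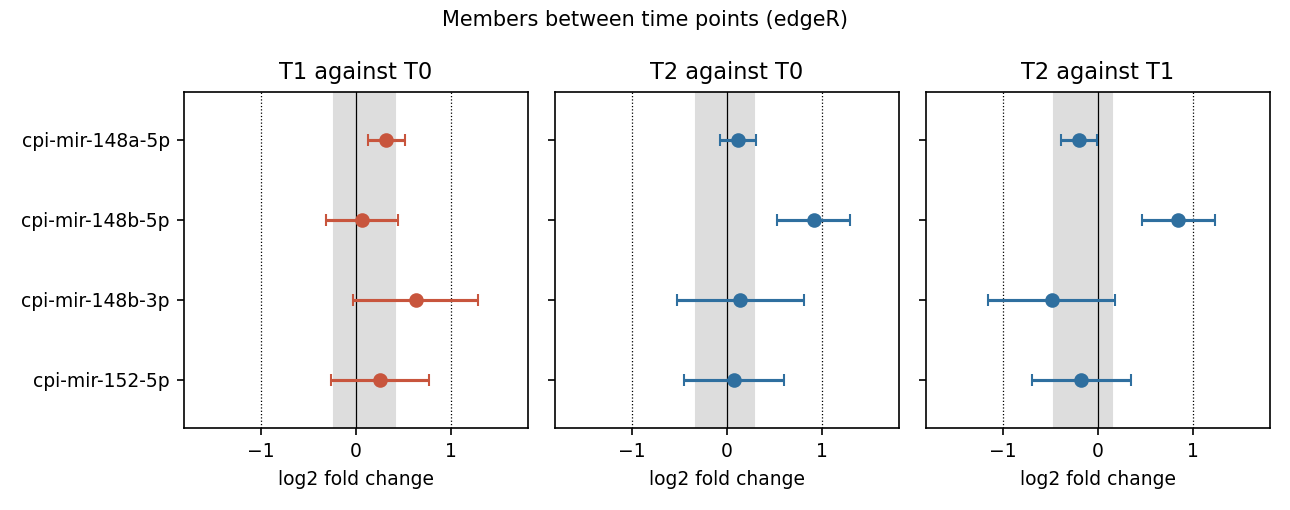
Points are log2 fold changes of the 4 members that passed the filter, bars are standard errors, grey bands the middle 50% of all 690 entries and dotted lines the fold limit of 1. cpi-mir-148b-5p lay to the right of the band at T2, at 0.91 against T0 and 0.84 against T1, and cpi-mir-148b-3p lay outside it at 0.63 for T1 against T0 and just outside at -0.49 for T2 against T1, with wider errors. Neither was called.

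cpi-mir-148b-5p was the second member by level, far below the first. Its share of cpi counts at T0 was 0.0485% in the lowest library, 0.104% at the median and 0.165% in the highest. At T1 these values were 0.0492, 0.0759 and 0.196%, and at T2 they were 0.0717, 0.139 and 0.460%. Relative to cpi-mir-148a-5p in the same library the entry had a median of 0.619% of its counts. T2 libraries reached higher, and the ranges overlapped, with 6 of 8 T2 libraries above the median of T0 and 6 of 8 above that of T1. The log2 fold change was 0.91 for T2 against T0 (standard error 0.38, unadjusted p = 0.0251, adjusted p = 0.577 by edgeR) and 0.84 for T2 against T1 (standard error 0.38, unadjusted p = 0.0361, adjusted p = 0.846 by edgeR). For T1 against T0 it was 0.07 (standard error 0.38, adjusted p = 0.983 by edgeR).

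The T2 values of cpi-mir-148b-5p rest in large part on 1 library. T2 replicate t36, the deepest library with 515184 cpi counts, held 2371 of the 3377 counts on the entry at T2 and had 0.460% (95% Wilson interval 0.442 to 0.479%), against 0.225% in the next highest T2 library. With it the T2 mean was 0.180 ± 0.126% (n = 8), and without it 0.140 ± 0.0592% (n = 7), against 0.102 ± 0.0430% at T0 (n = 8). Without that library the log2 fold change was 0.45 against T0 (adjusted p = 0.885 by edgeR) and 0.42 against T1 (adjusted p = 0.973 by edgeR). In the same library cpi-mir-148a-5p was near the median of all libraries, with 15.01% of cpi counts.

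cpi-mir-152-5p was rarer again, with 470 counts in all. Its share at T0 was 0.00101% in the lowest library (2 counts), 0.0140% at the median and 0.0335% in the highest. At T1 these values were 0.00290, 0.0145 and 0.0379%, and at T2 they were 0.00726, 0.0165 and 0.0224%. The medians lay close together and the lowest T1 value came from a single count. The log2 fold change was 0.25 ± 0.52 at T1 versus T0 (estimate ± standard error, adjusted p = 0.938 by edgeR), 0.07 ± 0.53 at T2 versus T0 (adjusted p = 0.958) and -0.18 ± 0.52 at T2 versus T1 (adjusted p = 0.991).

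The members with the other arm label were near the limit of detection. cpi-mir-148b-3p had 240 counts in all and was at 0 in 3 of 24 libraries, namely T0 replicate t40 and T2 replicates t39 and t45. A count of 0 allows a share of up to 0.00728% in T0 replicate t40 and up to 0.00165% in T2 replicate t45. In T2 replicate t39 a count of 0 allows up to 0.0514% (Wilson limit 0.0658%), which is above every share seen for this entry. Its highest share was 0.0256%, in T1 replicate t44. Its log2 fold change was 0.63 ± 0.66 at T1 versus T0 (estimate ± standard error, adjusted p = 0.877 by edgeR), 0.14 ± 0.67 at T2 versus T0 (adjusted p = 0.956) and -0.49 ± 0.66 at T2 versus T1 (adjusted p = 0.931). cpi-mir-152-3p summed to 18 counts at T0, to 29 at T1 and to 22 at T2, and was at 0 in 14 of 24 libraries. cpi-mir-148a-3p had 1 count before surgery, 11 at T1 and 6 at T2, all of them in 5 libraries. Neither passed the filter. In an edgeR fit without it, cpi-mir-148a-3p had a log2 fold change of 2.38 ± 1.33 at T1 versus T0 (adjusted p = 0.546) and 2.33 ± 1.37 at T2 versus T0 (adjusted p = 0.516). cpi-mir-152-3p had 0.98 ± 1.06 (adjusted p = 0.851) and 0.27 ± 1.08 (adjusted p = 0.994) in that fit. Such estimates rest on very few counts, and no difference between time points was detectable at counts this low.

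**Figure D3:**
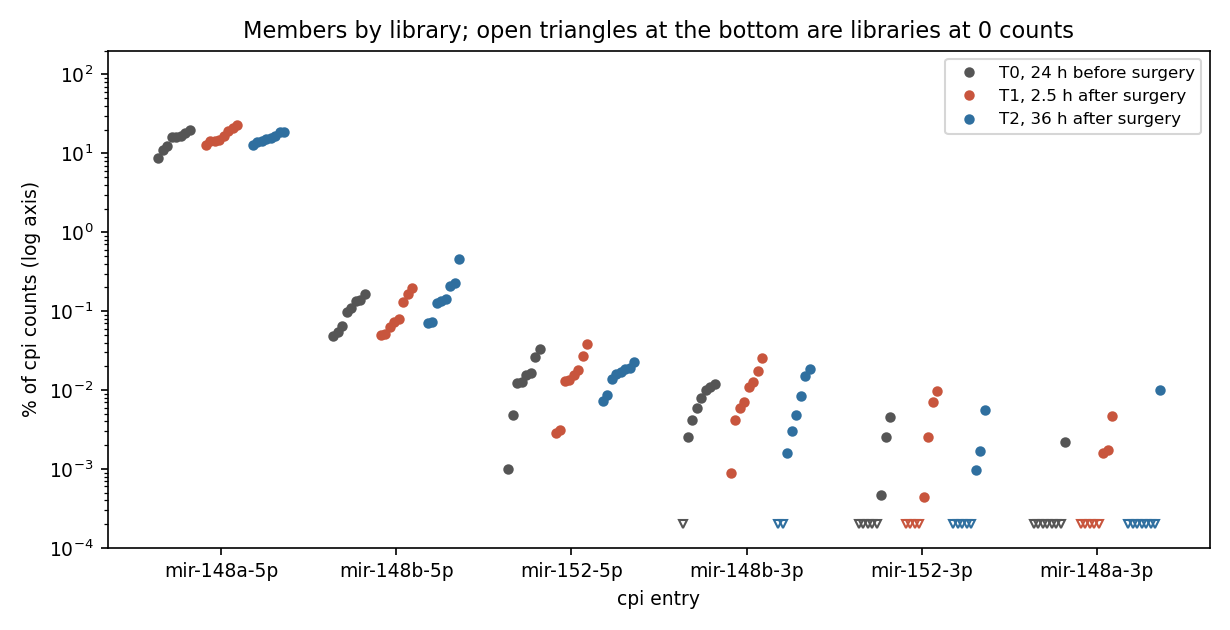
The vertical axis, a log axis, is the percent of cpi counts of each member, points are libraries and open triangles mark libraries at 0 counts. cpi-mir-148a-5p sat between 8.68 and 22.7%, cpi-mir-148b-5p between 0.0485 and 0.460%, and the remaining members lower, with cpi-mir-148a-3p at 0 in 19 of 24 libraries.

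The members that passed the filter were compared with each other. Over the 24 libraries, Pearson's correlation of log2 CPM was 0.08 between cpi-mir-148a-5p and cpi-mir-148b-5p, -0.41 between cpi-mir-148a-5p and cpi-mir-152-5p, and 0.17 between cpi-mir-148b-5p and cpi-mir-152-5p. That of cpi-mir-148b-3p was 0.07 with cpi-mir-148a-5p, 0.25 with cpi-mir-148b-5p and 0.22 with cpi-mir-152-5p. The negative value is near the lowest of any cpi entry with cpi-mir-148a-5p, which was -0.45. It includes libraries where cpi-mir-152-5p had very few counts, with 2 in T0 replicate t37, 1 in T1 replicate t38 and 1 in T2 replicate t39. These are descriptions over libraries that share animals, and cpi-mir-148a-5p is large enough to move the scale of the others. The entries of other families most like cpi-mir-148a-5p over the 24 libraries were cpi-mir-26-1-3p with a correlation of 0.49, cpi-mir-30e-5p with 0.48 and cpi-mir-98-3p with 0.46, against a median of 0.01 over the other cpi entries that passed the filter. Being the highest of many such values, they are above 0 by selection.

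The label 5p held nearly all counts of cpi-mir-148a and, summed over libraries, most counts of cpi-mir-148b and cpi-mir-152. For cpi-mir-148a the sum over all libraries was 566170 on 5p and 18 on 3p, so that 3p made up 0.00318% (exact binomial 95% interval 0.00188 to 0.00502%). For cpi-mir-148b it was 5590 on 5p and 240 on 3p, or 4.12% on 3p (3.62 to 4.66%). For cpi-mir-152 it was 470 on 5p and 69 on 3p, or 12.8% on 3p (10.1 to 15.9%). These intervals pool reads over libraries and cover counting error only, not the spread between libraries. In single libraries 3p ranged from 0 to 26.1% for cpi-mir-148b (median 5.70%) and from 0 to 71.4% for cpi-mir-152 (median 0%). The label 3p exceeded 5p in 1 library, at cpi-mir-152 in T0 replicate t37, where the hairpin had few counts (5 on 3p and 2 on 5p). Among these 3 cpi hairpins, the more abundant one was the more one-sided by these sums, though not by the median library. Within cpi-mir-148b the median library had 7.02% on 3p before surgery, 7.18% at T1 and 2.12% at T2, and the libraries of the 3 time points overlapped between 1.39 and 10.9%. The arm ratio of cpi-mir-148a, as log2 of 5p over 3p with 0.5 counts added to each, was 14.74 ± 1.87 in T0 libraries, 13.98 ± 1.37 in T1 libraries and 14.39 ± 2.43 in T2 libraries (SD, n = 8 each). The two-sided exact permutation p was 0.364 at T1 versus T0, 0.746 at T2 versus T0 and 0.687 at T2 versus T1 (n = 8 each). In the 19 libraries with 0 counts on 3p this ratio is set by the count on 5p, and so by depth.

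In mammals the main strand of miR-148a, miR-148b and miR-152 comes from the 3p arm, the opposite of the label here. The labels were therefore set against the main arm in mammals for other families, from a list written from textbook knowledge. Of 119 cpi hairpins of listed families with at least 100 counts, 106 had more counts under the label opposite to the main arm in mammals, and 13 under the same label. Hairpins of let-7 are not among these and were counted apart. Of 12 let-7 hairpins, 5 had more counts on the label 5p, 6 had more on 3p and 1 had equal counts, so they showed no such one-sided pattern. Where mammals use 5p, 60 of 68 hairpins had more on the label 3p, and where mammals use 3p, 46 of 51 had more on the label 5p. cpi-mir-122-3p (217744 counts, against 14 on cpi-mir-122-5p) and cpi-mir-451-3p (128798 counts, against 63 on cpi-mir-451-5p) are examples. Hairpins of 1 family are not independent, and the reads were not used here, so which strand the entry named cpi-mir-148a-5p counts was not tested. Each entry of the deposited table also carries a mark, for miRBase or not, which was not compared with the arm labels. All arm names in this text are those of the deposited table.

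**Figure D4:**
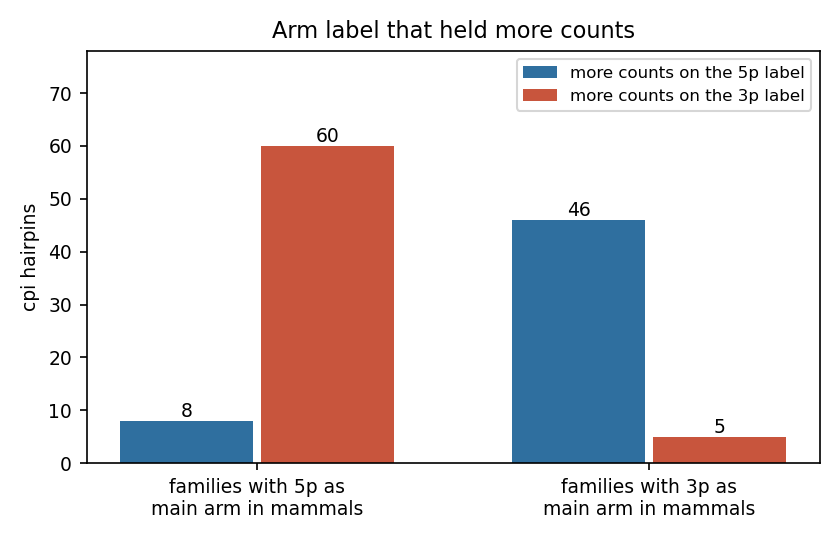
Bars count cpi hairpins of other families (at least 100 counts, let-7 left out) by the arm label that held more counts. They are split into families whose main arm in mammals is 5p (left, 68 hairpins) or 3p (right, 51 hairpins). The label opposite to the mammalian main arm was ahead in 60 and 46 of them.

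A read that matches several species adds to the entry of each, so entries of the other prefixes were compared library by library. Those with entries of these families are aca for the lizard Anolis carolinensis, oha for the cobra Ophiophagus hannah and ami for Alligator mississippiensis. Another 8 entries carry the prefix mml, which the study's methods do not name, and 0 of them belong to these families. They had 214597 counts, which are part of the totals over all entries. aca-mir-148a-5p had 566176 counts and oha-mir-148a-5p 559932, against 566170 on the cpi entry. In single libraries the aca entry was between 99.9 and 100.2% of the cpi entry, and the oha entry between 98.5 and 99.3%. In the alligator entries the bulk stood under another name. ami-mir-148b-5p had 512350 counts, against 5590 on cpi-mir-148b-5p, and in each library it was between 86.1 and 95.4% of cpi-mir-148a-5p. The ami entries analysed here were mir-148b and mir-152, and in which entry of each species a read was placed was not tested. Over the species, the 2 families took 16.4% of aca counts, 15.4% of ami counts, 16.1% of cpi counts and 16.8% of oha counts.

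The entries of mir-148b differed between species more than those of mir-148a. aca-mir-148b-3p had 3097 counts and oha-mir-148b-3p 3067, against 240 on cpi-mir-148b-3p, a ratio of 12.9 for the lizard entry. The aca entry was higher than the cpi entry in 23 of 24 libraries. Within the lizard hairpin, 3p made up 34.6% of the counts and exceeded 5p in 9 of 24 libraries, while in the turtle hairpin it exceeded 5p in 0 libraries. Those 9 libraries all lay among replicates t43 to t54, which hold all 3 time points. aca-mir-148b-3p was between 6.15 and 124 CPM in replicates t31 to t42, and between 210 and 708 CPM in t43 to t54. Sums and ratios over all libraries mix both sets, and what sets them apart was not tested. cpi-mir-148b-5p and aca-mir-148b-5p were close, with 5590 and 5853 counts. cpi-mir-152-5p had 470 counts and ami-mir-152-5p 514, with the same count in 13 of 24 libraries. By edgeR, none of the 8 aca, ami and oha entries of these families that passed the filter was called in any of the 3 comparisons, against 0.58%, 0% and 0% of all entries. aca-mir-148b-3p had log2 fold changes of 0.12 for T1 against T0 and 0.18 for T2 against T0, with a standard error of 0.65 for each. aca-mir-148b-5p, whose sum was close to that of the cpi entry, had 0.87 for T2 against T0 (standard error 0.38, adjusted p = 0.577 by edgeR). Like the cpi entry it was highest in T2 replicate t36, with 1313 CPM against 587 in the next highest T2 library, replicate t54. A read that matches both entries counts on each, so the aca value is not independent of the cpi value.

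**Figure D5:**
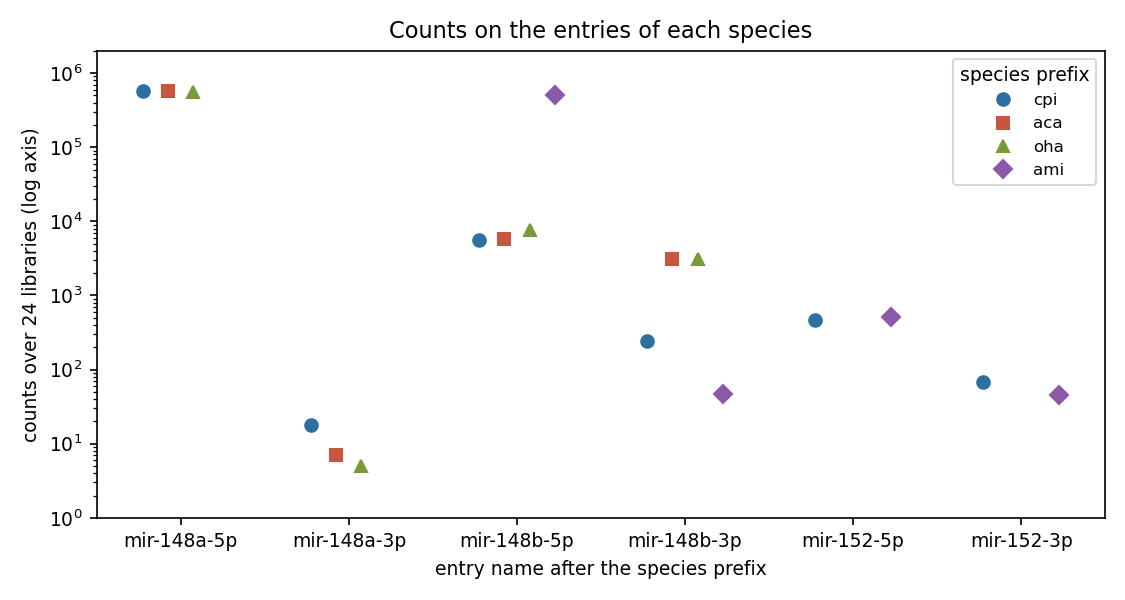
Points are counts summed over 24 libraries (log axis) on the entries of the 2 families, by name and species prefix. Entries named mir-148a-5p had almost the same sum in 3 species, ami-mir-148b-5p stood at their level with 512350 counts, and cpi-mir-148b-3p was more than 10 times below the aca and oha entries.

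Plasma carries miRNAs of many tissues, and entries of 4 tissue lists were read beside the members. The liver list (mir-122, mir-192 and mir-194, 8 entries) took a median of 4.21% of cpi counts in T0 libraries, 7.79% in T1 libraries and 4.27% in T2 libraries, and single libraries ranged from 1.55 to 28.7%. The red cell list, measured through mir-451 and mir-144, took between 0.505 and 9.06% in single libraries. The white cell list, measured through mir-223 and mir-142, took between 0.507 and 2.68%, and the skeletal muscle list between 0.0510 and 10.5%. Of 5 liver, 2 red cell, 6 white cell and 5 muscle entries tested, 0 were called in any comparison by edgeR, against 0.58%, 0% and 0% of all entries. So few entries at that background do not show that the lists were stable. Median log2 fold changes at T1 versus T0 were 0.36 for liver, 0.01 for red cell, -0.60 for white cell and -1.01 for muscle entries. At T2 versus T0 they were -0.31, -0.45, -0.78 and -1.63, and no list was tested. The median summed share at T0, T1 and T2 was 2.82, 2.07 and 2.17% for red cell entries. It was 1.46, 0.907 and 1.48% for white cell and 0.582, 0.376 and 0.557% for muscle entries. Medians of fold changes weigh each tested entry alike, whatever its counts, so they do not show that a list as a whole fell. Their part in the share of cpi-mir-148a-5p was examined only for mir-122. With mir-122 entries taken out of the total, the difference in share of T1 from T0 was 3.30 percentage points and that of T2 from T1 was -2.75 points, each with an adjusted exact permutation p of 0.346.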

How the data were processed

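Small RNA of 24 plasma libraries (8 per time point) was sequenced on an Illumina instrument. Per the study's methods, adapters were trimmed with Cutadapt, short reads were dropped and BWA mapped what remained against precursor miRNAs of saurian species. The authors deposited raw counts per mature entry and library. The extraction kit named in the labels is not the one selected in the study, and which made these libraries was not settled.

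Each of 1994 entries stood in 2 identical rows and was used once. Reads matching several species are entered under each, and all entries together had 3.95 times the counts on cpi entries. Total counts per library ranged from 22648 to 2042924. edgeR 4.0.16 (R 4.3.3; TMM, filterByExpr, quasi-likelihood test, Benjamini-Hochberg over 690 entries) compared time points, without pairing. A standard error is the log2 fold change divided by the square root of F. Exact permutation tests used numpy 2.4.6 and intervals scipy 1.17.1. Alternatives were DESeq2 1.42.0, other scalings, filters, entries and samples. Scripts were tested on simulated data. The entries named are all members, the 3 other cpi entries with the highest mean share, and the 3 most correlated with cpi-mir-148a-5p. cpi-mir-451 and entries of other species in examples, and the aca and oha entries of mir-148b-3p, were described after their values were seen. Members and lists were chosen with earlier results of these data known.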

Additional observations from a re-analysis of the deposited data

Results flagged for a closer look

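Dixon's limit at the 95% level was applied to 12 groups of 8 libraries (4 members that passed the filter, 3 time points). 1 of the 12 groups had a library farther from its neighbours than this limit allows. Chance gives about 1 in 20 for each group, so 1 flag in 12 groups is not unusual, and the groups share libraries. The flagged group was cpi-mir-148b-5p at T2. There replicate t36 had 0.460% of cpi counts and the next highest T2 library 0.225%, a gap of 0.605 of the range.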

How the results depend on the processing

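No paired analysis was possible because the labels do not name the turtle, so the tests leave differences between turtles in the spread. 0 members were called in any comparison under the 9 alternative fits or with any of 24 libraries left out. Few entries of any kind were called there, so 0 called members do not show that the members were stable. The alternative fits called 0 to 16 entries at T1 versus T0, 0 or 1 at T2 versus T0 and 0 at T2 versus T1. With a library left out, the fits called 0 to 6, 0 or 1 and 0 entries. Over the alternative fits, the log2 fold change of cpi-mir-148a-5p was 0.21 to 0.36 for T1 against T0, 0.04 to 0.19 for T2 against T0 and -0.26 to -0.11 for T2 against T1. With each library left out it was 0.19 to 0.38, 0.04 to 0.30 and -0.30 to -0.03. Scaling by library totals put the median entry at 0.01 for T1 against T0, against 0.08 with TMM.

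By medians the share of cpi-mir-148a-5p changed sign, with T1 minus T0 at -0.374 and T2 minus T0 at -0.735 points. On the aca hairpin the arm ratio of mir-148a changed sign, with T1 minus T0 at 0.19 and T2 minus T1 at -0.83. With each library left out, the arm ratio was -0.84 to 0.16 for T2 minus T0 and -0.00582 to 0.92 for T2 minus T1. Signs also changed for cpi-mir-148b-5p at T1 against T0 (-0.00076 without TMM, -0.0072 with no filter; -0.15 to 0.19 with each library left out), and, with counts summed over species, for mir-148b-3p (0.0466) and mir-148b-5p (-0.0786) at T2 against T1, where the ami entry makes up most of the 5p sum. With each library left out, cpi-mir-152-5p was -0.0458 to 0.60 for T1 against T0, -0.12 to 0.39 for T2 against T0 and -0.33 to 0.0921 for T2 against T1, and cpi-mir-148b-3p was -0.21 to 0.46 for T2 against T0. Elsewhere the cause of these changes was not tested. cpi-mir-148b-3p did not pass the filter, and so gave no value, with 2 time points in the fit or without T1 replicate t47.

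Over all entries, the 4 calls for T1 against T0 became 0 without TMM, with no filter, summed over species or with 2 time points in the fit, 1 on cpi entries alone, 16 by DESeq2, and 0 to 6 with each library left out. For T2 against T0 the 0 calls became 1 in 5 of the alternative fits. The totals with distinct counts and without mir-122 were chosen after seeing the data. Low counts limit the 3p members most, which were at 0 in 3, 14 and 19 of 24 libraries. These zeros did not follow depth alone. cpi-mir-148a-3p was at 0 in T2 replicate t36, with 515184 cpi counts, and had 6 counts in T2 replicate t54, with 59919.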
